A study of Mustela putorius furo with 2 samples.

Results

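DCX, DCLK1 and DCLK2 encode the doublecortin family proteins best known from neurons. They were taken as the rows of the deposited gene tables with these symbols, which gave 3 genes of 28156, each with 1 row: DCX (ENSMPUG00000004047), DCLK1 (ENSMPUG00000001856) and DCLK2 (ENSMPUG00000007082). They are described here across the types of nuclei of the ferret somatosensory cortex. The data were single-nucleus RNA-seq profiles, in which each nucleus carries a barcode and each captured transcript a unique molecular identifier (UMI). There were 2 libraries, 1 from tissue labelled as the upper band of the cortex and 1 from tissue labelled as the deeper band. Their titles number them as replicates 1 and 2 of a mutant, and the groups used here follow the tissue labels. Both carry the genotype label DCX knockout, whereas the series text speaks of a gene that was knocked down. The allele, the age and sex of the animals and whether animals were pooled are not given in the sources used here, and wild-type tissue was not analysed here.

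Doublecortin proteins bind microtubules through tandem doublecortin domains. DCX does so in migrating neurons and growing neurites, where it stabilises microtubules. DCLK1 and DCLK2 join the same kind of domain to a protein kinase domain, and in mice DCLK1 is known to share work with DCX in neuronal migration and axon growth. Loss of DCX in people causes lissencephaly, a smooth cortex, or a subcortical band of misplaced neurons.

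With 1 library per band, no difference given here could be checked in replicates, and an effect of band cannot be told apart from that of a library or an animal. After filtering, 6261 nuclei of the upper band and 8150 of the deeper band remained, with 52352189 and 53363232 UMIs and medians of 7992 and 4888 UMIs per nucleus. The libraries shared 24 barcodes. Clustering gave 27 clusters, of which 23 took a class name from marker genes, with 4 to 10 markers raised in each. The 3 genes were used neither to cluster nor to name. Clusters below are given by their class and their 2 leading genes. Excitatory neuron-like nuclei (markers such as SV2B and CAMK2A) made up 50.7% of the upper and 42.3% of the deeper library, in 12 clusters, and inhibitory neuron-like nuclei (GAD1 and GAD2) made up 16.3% and 9.45%, in 5 clusters. Raised means at least 1/3 of a marker's highest cluster level. At 2-fold over all other nuclei, each excitatory cluster had only 0 or 1 of its class markers, and the inhibitory clusters had 4 to 6. Those other nuclei include the remaining clusters of the same class. The 4 unnamed clusters held 6.77% and 8.42% of nuclei.

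Levels are UMIs of a gene per 1000000 UMIs of a class or cluster (CPM), with 95% Poisson intervals in brackets. Ratios are on the log2 scale with 95% conditional binomial intervals. All intervals cover counting error only. CPM is not scaled to transcript length, so each gene is compared between types of nuclei and not with the other genes.

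DCX transcript was present in both libraries despite the knockout label. It had 4111 UMIs in the upper band (78.5 CPM) and 4121 in the deeper band (77.2 CPM), a log2 ratio of deeper over upper of -0.02 (-0.09 to 0.04). A transcript count cannot show whether functional protein is made, and with no wild-type library it could not be used to check the genotype label. Excitatory nuclei supplied 64.3% of DCX UMIs in the upper and 71.7% in the deeper library. Inhibitory nuclei supplied 25.1% and 17.0%, and astrocyte-like nuclei 6.08% and 8.59%.

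By CPM, DCX was highest in astrocyte-like nuclei, a class marked by SLC1A2, SLC1A3 and AQP4. It reached 207 CPM (182 to 235) there in the upper band, and 178 CPM (160 to 197) in the deeper one. Inhibitory nuclei followed with 120.3 and 114 CPM, ahead of excitatory nuclei with 71.0 (68.4 to 73.8) and 77.5 (74.7 to 80.3) CPM. Values of the 2 bands did not overlap between these 3 classes, so the order was the same in each library. Oligodendrocyte precursor-like nuclei, with PDGFRA, had 42.9 and 25.2 CPM from 16 and 12 UMIs. Vascular and leptomeningeal-like nuclei had 16.5 and 69.6 CPM from 9 and 17 UMIs, a range that spanned that of the precursors. Oligodendrocyte-like nuclei had 7.25 and 5.01 CPM from 15 and 21 UMIs, the lowest of the 6 classes.

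The astrocyte over excitatory log2 ratio of DCX was 1.55 (1.35 to 1.73) in the upper band and 1.20 (1.04 to 1.36) in the deeper band. Among the genes with at least 50 UMIs, 28.7% and 29.7% were at least 1.5-fold higher in astrocyte-like nuclei, and DCX lay at percentiles 89.5 and 84.4 of their log2 ratios. The inhibitory over excitatory log2 ratio of DCX was 0.76 (0.65 to 0.86) and 0.56 (0.44 to 0.68), with 17.0% and 19.2% of genes 1.5-fold higher. The second of these did not reach 1.5-fold.

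Transcripts of other cells in the droplets can place UMIs in nuclei that do not make them, so the neuronal genes in glia are given beside DCX. SLC17A7, the vesicular glutamate transporter of excitatory neurons, stood in astrocyte-like nuclei at 77.5% of its excitatory level in the upper and 42.2% in the deeper band. In oligodendrocyte-like nuclei it stood at 75.0% and 58.2%. The 9 excitatory markers ranged from 0% to 237% of their excitatory level in astrocyte-like nuclei of the upper band, with a median of 21.3%, and from 0% to 71.6%, with a median of 15.4%, in those of the deeper band. GAD1 in astrocyte-like nuclei was at 2.38% and 0.552% of its inhibitory level, and GAD2 at 3.73% and 4.30%. Against these values, DCX in astrocyte-like nuclei stood at 292% and 230% of its excitatory level, while DCLK1 in the same nuclei stood at 6.53% and 7.61%.

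The proportion of DCX to DCLK1 UMIs also differed between glia. Excitatory nuclei held 4.40 and 4.81 DCX UMIs per 100 DCLK1 UMIs. Oligodendrocyte-like nuclei held nearly the same proportion, 5.10 and 4.38, whereas astrocyte-like nuclei held 197 and 145. The oligodendrocyte-like values rest on 15 and 21 DCX UMIs. The precursors lay between, at 26.7 and 24.5. For DCLK2 the oligodendrocyte-like proportion was 45.6 and 49.8 UMIs per 100 DCLK1 UMIs, against 5.51 and 4.58 in excitatory nuclei. The part of free RNA in these proportions was not tested.

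Nuclei that carried a DCX UMI were counted as well. They were 45.7% and 48.5% of excitatory nuclei, 53.7% and 52.1% of inhibitory nuclei and 38.4% and 30.5% of astrocyte-like nuclei, against 1.63% and 0.957% of oligodendrocyte-like nuclei. These shares depend on depth, and excitatory nuclei had medians of 10750.5 and 10387 UMIs, where astrocyte-like nuclei had 2804 and 2420. Every nucleus was therefore thinned to 1500 UMIs. This left out 82 and 428 oligodendrocyte-like and 14 and 52 astrocyte-like nuclei, and among neurons 17 and 8 excitatory and 16 and 8 inhibitory nuclei. At equal depth a DCX UMI was found in 24.9% and 20.6% of astrocyte-like nuclei, 14.7% and 16.5% of inhibitory nuclei and 9.22% and 12.1% of excitatory nuclei, the order given by the CPM values. Oligodendrocyte-like nuclei, taken as a class that should lack the gene, stood at 1.68% and 0.843%, and free RNA was not measured. The precursors had 9.17% and 3.24%.

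**Figure D1:**
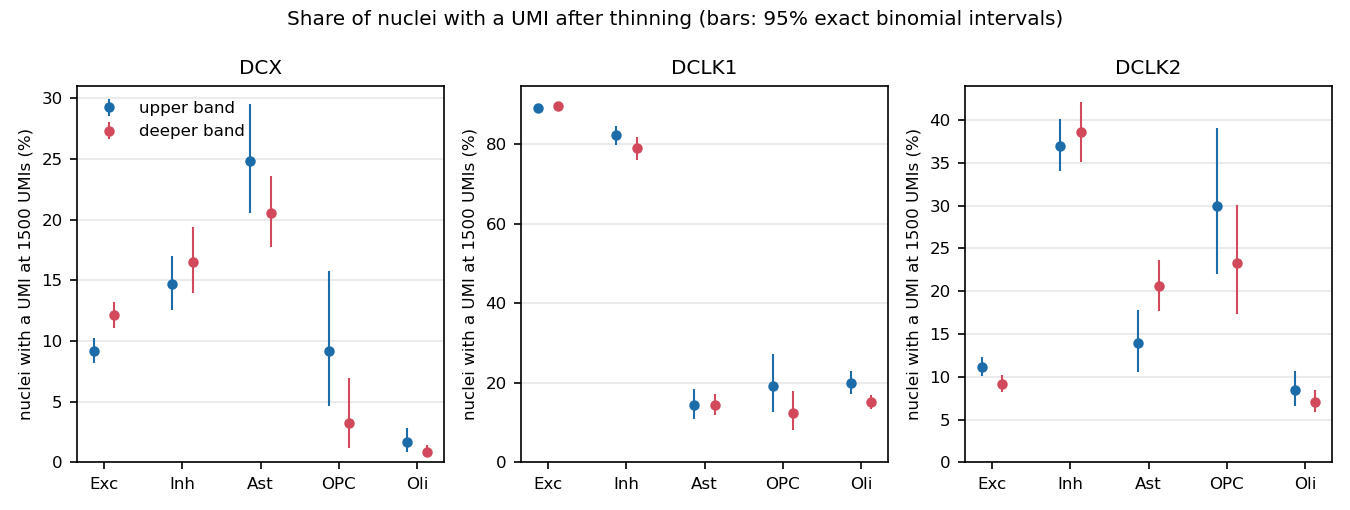
Share of nuclei with at least 1 UMI of each gene after thinning to 1500 UMIs (vertical axis, %, from 0, with a scale of its own in each panel) in excitatory (Exc), inhibitory (Inh), astrocyte-like (Ast), oligodendrocyte precursor-like (OPC) and oligodendrocyte-like (Oli) nuclei of each band. Points are shares and bars 95% exact binomial intervals. DCX peaked in astrocyte-like nuclei (24.9% and 20.6%), DCLK1 in excitatory nuclei (89.1% and 89.5%) and DCLK2 in inhibitory nuclei (37.0% and 38.6%).

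Single nuclei held few DCX UMIs. The most in any nucleus was 11 in the upper and 9 in the deeper band, and 93 and 65 nuclei held at least 5. In the excitatory cluster led by NPR3 and CRHR2, which carries the deep-layer genes FEZF2 and BCL11B, 22 of 141 nuclei of the upper band (15.6%) and 4 of 21 of the deeper band were among them. That cluster was also the deepest sequenced, with medians of 19902 and 17241 UMIs, and after thinning 15.2% and 14.3% of its nuclei had a DCX UMI.

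Among excitatory clusters DCX ranged from 39.5 to 158 CPM. The highest was the cluster led by MME and TMEM61, which carried the upper-layer gene CUX2 (902 CPM) and the layer 4 gene RORB (1542 CPM). DCX stood there at 139 CPM in the upper and 158 in the deeper band. The other cluster with high RORB, led by PTGIS and TEAD4 (1098 CPM), had 99.5 and 96.7 CPM. At the other end was the cluster led by FOXP2 and SYT6, which carried the deep-layer gene TLE4 (797 CPM) and had 39.5 and 40.8 CPM of DCX. Deep-layer markers did not go with low DCX throughout: the cluster led by TRPC7 and CDHR1, with TLE4 at 736 CPM and NXPH4, had 82.0 and 95.4 CPM, and that led by HHLA2 and CCDC180, with TLE4 at 971 CPM, had 82.9 and 69.5 CPM. Nor did CUX2 go with high DCX, since the clusters led by MCHR2 and SLC17A6 (485 CPM of CUX2) and by SYT10 and PLCXD2 (674 CPM) had 47.9 and 51.6 CPM and 51.4 and 63.3 CPM of DCX.

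The MME and FOXP2 clusters were singled out after their values were seen, so their distance from the rest is a description. DCX in the MME cluster exceeded that in all other excitatory nuclei by a log2 ratio of 1.07 (0.91 to 1.23) in the upper band and 1.13 (0.96 to 1.29) in the deeper band, with 11.3% and 11.9% of genes 1.5-fold higher there. In the FOXP2 cluster the DCX log2 ratio was -0.96 (-1.16 to -0.76) and -0.95 (-1.38 to -0.55), with 22.6% and 32.2% of genes past 1.5-fold in either direction. STMN1 encodes a tubulin-binding protein abundant in young neurons. Over both bands it stood at 166 CPM in the MME cluster, 167 in the PTGIS cluster and 85.9 in the FOXP2 cluster. SOX4, a transcription factor of young neurons, stood at 9.56, 8.004 and 0.44 CPM. These are 2 of the 6 immature neuron markers measured, and their sums mix the bands, which the clusters hold in different proportions. Within each band STMN1 was at least 1.5-fold higher in the MME cluster than in all other excitatory nuclei. In the FOXP2 cluster STMN1 was not past 1.5-fold in either band. STMN2 and DPYSL3, also among the 6 markers, were not past 1.5-fold in the MME cluster in either band. In the FOXP2 cluster STMN2 was not past it either, while DPYSL3 was at least 1.5-fold lower in both bands. Values of NEUROD1 and NCAM1 are not given here. The part of neuronal maturity in the DCX levels was not tested.

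The remaining excitatory clusters lay between these. The cluster led by CYP2S1 and HNF4G had 78.3 and 92.3 CPM of DCX, that led by IQGAP2 and LGR5 63.5 and 75.5, and that led by GALNT14 and SEMA3E 60.7 and 54.9. The cluster led by TLL1 and MYOCD had 101 and 129 CPM, but from only 16 and 20 nuclei. Ordered by level, 7 of the 22 pairs of neighbouring clusters over all classes had band values that did not overlap. The other 15 pairs had band values that overlapped, and they are not ordered here. The 2 libraries are different bands, so the gap between their values does not measure a spread of replicates. Among these is the pair of the PTGIS cluster and the astrocyte-like cluster led by MFAP5 and CD44. The latter had 0 CPM in the upper band, from 2 nuclei, and 113.5 CPM in the deeper band, above the PTGIS values.

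Within inhibitory nuclei DCX was highest in the cluster led by CALB1 and LYPD6, which carries LHX6 and the peptide gene SST (1597 CPM), at 162 and 143 CPM. The other large LHX6 cluster, led by LRRC38 and MYO18B with little SST (106 CPM), had 112 and 109 CPM. Clusters marked by ADARB2 were lower: 93.4 and 96.3 CPM in the VIP cluster led by CALB2 and ADAMTS16, and 81.5 and 91.8 CPM in the RELN cluster led by COCH and MCTP2. The cluster led by CHODL and NOS1, of 22 and 12 nuclei, had 102 and 138 CPM, a range that overlapped its neighbours.

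**Figure D2:**
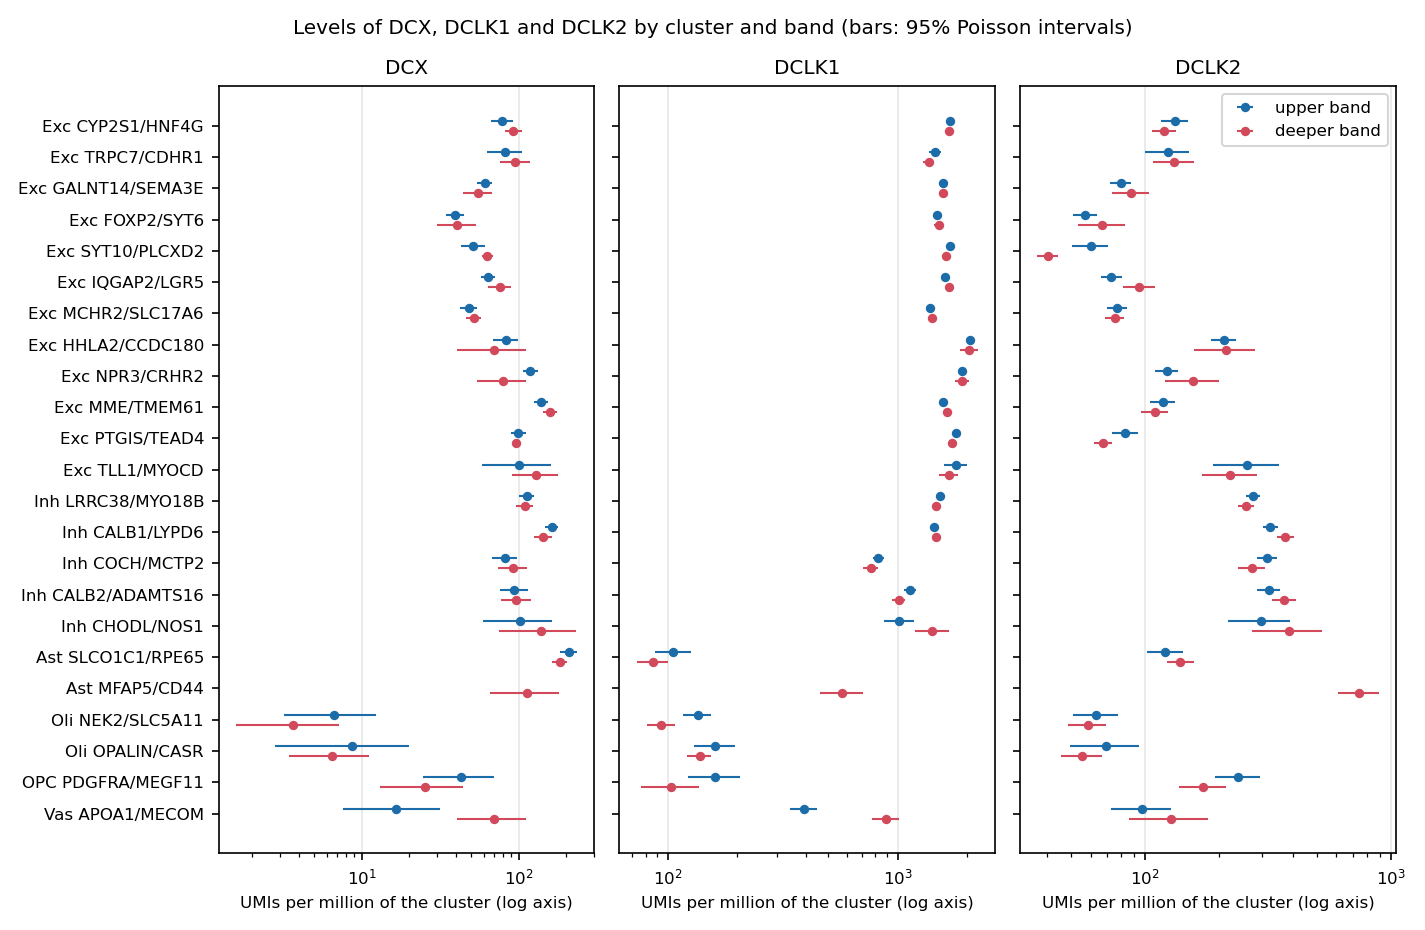
Level of DCX, DCLK1 and DCLK2 (horizontal log axis, CPM of the cluster) in each named cluster, labelled by class (Exc, Inh, Ast, Oli, OPC, and Vas for vascular and leptomeningeal-like) and 2 leading genes, in the upper band (blue) and the deeper band (red). Points are levels and bars 95% Poisson intervals, and points with under 10 nuclei are left out. DCX varied from 39.5 to 158 CPM among excitatory clusters, DCLK1 from 1366 to 2075 and DCLK2 from 40.1 to 260.1.

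DCLK1 was highest in the neuronal classes. Excitatory nuclei had 1614 and 1612 CPM, inhibitory nuclei 1324 and 1294, and the oligodendrocyte lineage and astrocyte-like nuclei between 103 and 161 CPM. Excitatory nuclei held 82.7% of all DCLK1 UMIs in the upper and 86.9% in the deeper library. The astrocyte over excitatory log2 ratio was -3.94 (-4.20 to -3.69) and -3.72 (-3.90 to -3.54), with 31.9% and 31.7% of genes 1.5-fold lower in astrocyte-like nuclei. It was -2.68 and -3.02 when nuclei were assigned by their own marker counts without clustering. The order of classes was excitatory, inhibitory, then vascular (389 and 888 CPM), while precursors (161 and 103 CPM), oligodendrocyte-like (142 and 115 CPM) and astrocyte-like nuclei (105 and 123 CPM) overlapped. An unnamed cluster led by IKZF1 and FLI1, of 56 and 71 nuclei, had 1088 and 617 CPM. Excitatory markers stood in it at a median of 58.7% and 60.8% of their excitatory level, and SLC17A7 at 97.3% and 150%. Its DCLK1 UMIs lay in 41.1% and 18.3% of its nuclei, and their source was not tested. The vascular values stand beside excitatory markers at a median of 58.7% and 51.0% of their excitatory level in the same nuclei, and the part of other cells' RNA in them was not tested.

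As a fold between the lowest and highest value, DCLK1 spanned a narrower range than DCX among excitatory clusters, from 1366 to 2075 CPM. It was highest in the HHLA2 cluster, at 2075 and 2052 CPM, and next in the NPR3 cluster, at 1899 and 1911 CPM, both clusters with FEZF2. It was lowest in the TRPC7 cluster (1456 and 1366 CPM) and the MCHR2 cluster (1385 and 1413 CPM). The MME and FOXP2 clusters, the extremes for DCX, were close to the other excitatory nuclei for DCLK1, with log2 ratios of -0.03 and 0.03 for MME and -0.13 and -0.09 for FOXP2.

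Among the inhibitory clusters the 2 large ones with LHX6 lay above both ADARB2 clusters for DCLK1. The LHX6 clusters led by LRRC38 and by CALB1 had 1535 and 1468 CPM and 1437 and 1478 CPM. The ADARB2 clusters had 1132 and 1012 CPM (led by CALB2) and 825 and 764 CPM (led by COCH). The CHODL cluster, also with LHX6, had 1016 CPM in the upper band, below the CALB2 cluster, and 1417 CPM in the deeper band. Thinned to 1500 UMIs, a DCLK1 UMI was found in 89.1% and 89.5% of excitatory, 82.3% and 79.0% of inhibitory and 14.4% and 14.5% of astrocyte-like nuclei, and in 19.97% and 15.2% of oligodendrocyte-like nuclei. The astrocyte-like share was thus no higher than the oligodendrocyte-like share in either band.

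DCLK2 was distributed differently from both. Inhibitory nuclei had the highest level of any class, 302 and 308 CPM, and supplied 39.6% and 34.0% of its UMIs. Excitatory nuclei had 89.0 and 73.8 CPM. The inhibitory over excitatory log2 ratio was 1.77 (1.69 to 1.84) in the upper band and 2.06 (1.97 to 2.14) in the deeper band. Between these classes came oligodendrocyte precursors (239 and 172 CPM), astrocyte-like nuclei (126 and 185 CPM) and vascular nuclei (97.4 and 127 CPM). The astrocyte-like range overlapped that of the precursors and that of the vascular nuclei, which did not overlap each other. Oligodendrocyte-like nuclei were lowest, at 64.7 and 57.0 CPM, but this was still 72.8% and 77.2% of the excitatory level, where DCX and DCLK1 stood at 10.2% or less.

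The step between oligodendrocyte precursor-like and oligodendrocyte-like nuclei was clear for DCLK2. The log2 ratio of precursors over oligodendrocytes was 1.88 (1.48 to 2.28) in the upper band and 1.60 (1.22 to 1.97) in the deeper band, where 20.9% and 21.8% of genes were 1.5-fold higher. For DCLK1 it was 0.18 (-0.25 to 0.58) and -0.15 (-0.61 to 0.27). For DCX the ratio was 2.56 (1.46 to 3.68) and 2.33 (1.18 to 3.42), but it rests on under 50 UMIs in each band. At equal depth a DCLK2 UMI was found in 30.0% and 23.2% of precursors and 8.51% and 7.10% of oligodendrocyte-like nuclei, against 37.0% and 38.6% of inhibitory and 11.2% and 9.18% of excitatory nuclei.

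As a fold between the lowest and highest value, DCLK2 ranged more widely than the other genes among excitatory clusters, from 40.1 to 260.1 CPM. The small TLL1 cluster had 260.1 and 222 CPM and the HHLA2 cluster 209 and 213 CPM. The CYP2S1, TRPC7, NPR3 and MME clusters followed with values between 109 and 156 CPM. Among the lowest were the FOXP2 cluster at 57.2 and 66.8 CPM, the lowest in the upper band, the SYT10 cluster at 60.0 and 40.1 CPM, the lowest in the deeper band, and the PTGIS cluster at 83.0 and 67.4 CPM. The 5 inhibitory clusters lay between 257 and 384 CPM, all above the HHLA2 cluster, and only the TLL1 cluster reached into their range. For DCLK2 the ADARB2 clusters (319 and 368 CPM led by CALB2, 314 and 271 CPM led by COCH) overlapped the LHX6 clusters (275 and 257 CPM led by LRRC38, 324 and 372 CPM led by CALB1).

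Astrocyte-like nuclei held 2 clusters that differed in this family. The large cluster led by SLCO1C1 and RPE65 held 386 and 725 nuclei. A small cluster led by MFAP5 and CD44, with AQP4 at 396 CPM and GFAP at 260 CPM over both bands against 108 and 58.9 CPM in the large cluster, held 2 nuclei of the upper and 81 of the deeper band. In the deeper band, DCLK2 stood at 741 CPM (610 to 893) in the CD44 cluster and 139 CPM in the large cluster, a log2 ratio of 2.41 (2.08 to 2.74). DCLK1 stood at 574 CPM (459 to 709) and 85.9 CPM, a log2 ratio of 2.74 (2.34 to 3.13). DCX went the other way, with 113 CPM (66.1 to 182) from 17 UMIs against 183 CPM, a log2 ratio of -0.69 (-1.49 to 0.01) whose interval holds 0. In this comparison 21.2% of genes were 1.5-fold higher in the CD44 cluster, and both paralogs lay above the 99th percentile of the log2 ratios of 5966 genes.

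Markers of other cells are given beside these values, and their part in them was not tested. In the deeper band SLC17A7 stood at 52.3% of its excitatory level in the CD44 cluster and 41.3% in the large cluster. The 9 excitatory markers ranged from 0% to 89.2% of their excitatory level in the CD44 cluster, with a median of 10.1% against 15.9% in the large cluster. Of the inhibitory markers, GAD1 stood at 0% of its inhibitory level against 0.597%, and GAD2 at 7.74% against 4.02%. Over both bands FLT1, an endothelial gene, was at 84.4 CPM against 5.59. The CD44 cluster was also shallower, with a median of 1759 UMIs against 2477. At equal depth a DCLK2 UMI was found in 61.3% of its nuclei (48.1% to 73.4%) and 16.9% of the large cluster (14.2% to 19.9%), and a DCLK1 UMI in 43.5% and 11.9%.

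**Figure D3:**
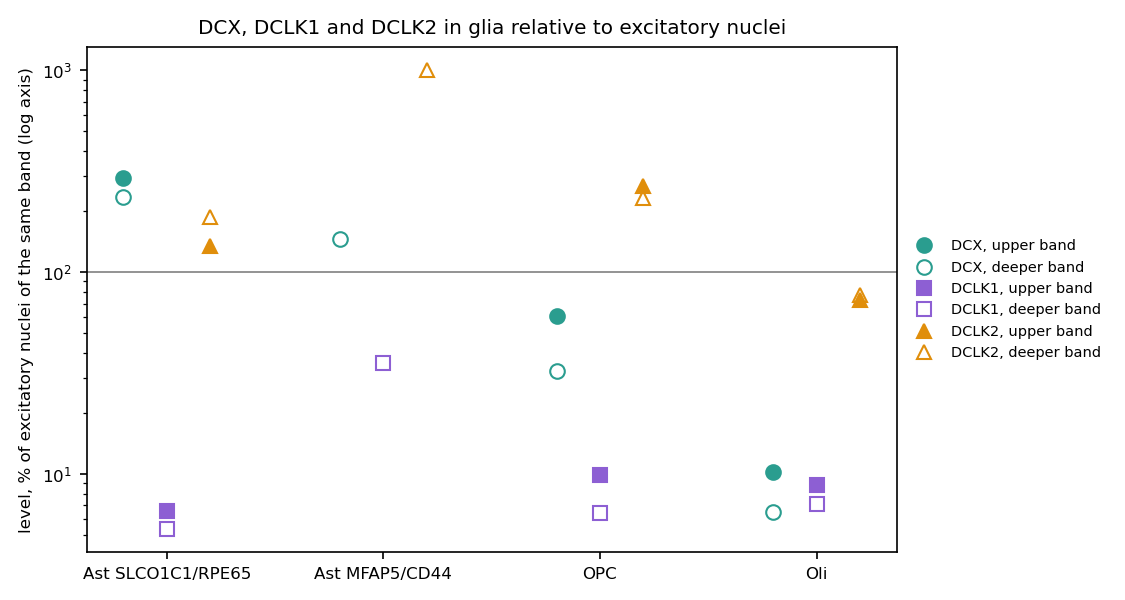
Level of DCX (circles), DCLK1 (squares) and DCLK2 (triangles) in the astrocyte-like clusters, oligodendrocyte precursor-like (OPC) and oligodendrocyte-like (Oli) nuclei, as a percentage of the level in excitatory nuclei of the same band (vertical log axis, line at 100%), in the upper (filled) and deeper band (open). The CD44 cluster of the upper band, with 2 nuclei, is left out. In oligodendrocyte-like nuclei DCX and DCLK1 lay at 10.2% or less and DCLK2 at 72.8% and 77.2%.

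The bands were compared within each class. None of the 3 genes passed 1.5-fold in excitatory, inhibitory or astrocyte-like nuclei, where 11.7%, 7.1% and 8.8% of genes did in either direction. For DCX the log2 ratio of deeper over upper was 0.13 (0.05 to 0.20) in excitatory, -0.08 (-0.22 to 0.06) in inhibitory and -0.22 (-0.46 to 0.02) in astrocyte-like nuclei. For DCLK1 it was 0.00 (-0.02 to 0.01), -0.03 (-0.08 to 0.01) and 0.22 (-0.10 to 0.54).

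For DCLK2 the log2 ratio was -0.27 (-0.34 to -0.20) in excitatory nuclei, 0.02 (-0.06 to 0.11) in inhibitory nuclei and 0.55 (0.27 to 0.83) in astrocyte-like nuclei. The astrocyte-like value was 0.21 (-0.09 to 0.51) without the CD44 cluster, and the DCLK1 value was -0.30 (-0.65 to 0.05). With each cluster given the same weight in both bands the astrocyte-like DCLK2 value turned to -0.21, a weighting in which the 2 CD44 nuclei of the upper band stand for their cluster. In precursors DCLK1 and DCLK2 had ratios of -0.64 (-1.22 to -0.07) and -0.47 (-0.92 to -0.02), with 8.84% of genes past 1.5-fold in either direction. DCLK1 passed that fold there, from 60 and 49 UMIs. In oligodendrocyte-like nuclei, where 6.84% of genes passed it, the ratios were -0.31 (-0.52 to -0.10) for DCLK1 and -0.18 (-0.49 to 0.13) for DCLK2. Vascular and leptomeningeal-like nuclei had the largest class ratios of DCX, 2.07 (0.83 to 3.42) from 9 and 17 UMIs, and of DCLK1, 1.19 (0.91 to 1.47), while that of DCLK2 was 0.38 (-0.31 to 1.05). In that class 32.5% of genes passed 1.5-fold in either direction, and the excitatory markers in its nuclei are given above.

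The excitatory clusters differed in size between bands. The FOXP2 (544 nuclei), IQGAP2 (497), MCHR2 (479) and GALNT14 (425) clusters were the largest in the upper band. In the deeper band the SYT10 (985), PTGIS (862) and MCHR2 (628) clusters were the largest. Over both bands, the 4 excitatory clusters lowest in DCLK2 were the SYT10, FOXP2, PTGIS and MCHR2 clusters, which include large clusters of each band. Giving each cluster the same weight in both bands moved the excitatory log2 ratio of DCLK2 from -0.27 to -0.04, and that of DCX from 0.13 to 0.07, while that of DCLK1 was -0.01. Within clusters the DCLK2 ratio went both ways: the SYT10 cluster had -0.58 (-0.86 to -0.29) and the PTGIS cluster -0.30 (-0.51 to -0.09), whereas the IQGAP2 cluster had 0.38 (0.11 to 0.63).

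Of the 12 excitatory clusters, 1 had a DCX interval above 0 and 1 below 0. These were the SYT10 cluster at 0.30 (0.02 to 0.59) and the NPR3 cluster at -0.58 (-1.15 to -0.05), the latter with only 21 nuclei in the deeper band. For DCLK1, 1 was above and 2 below, with all excitatory clusters between -0.11 and 0.06. Among the 5 inhibitory clusters no DCX interval lay clear of 0. For DCLK1, 1 lay above 0, the small CHODL cluster at 0.48 (0.15 to 0.81). A further 2 lay below it, the CALB2 cluster at -0.16 (-0.29 to -0.03) and the LRRC38 cluster at -0.065 (-0.126 to -0.003). The CALB1 cluster had a DCLK2 ratio of 0.20 (0.05 to 0.35), and the other 4 intervals held 0.

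**Figure D4:**
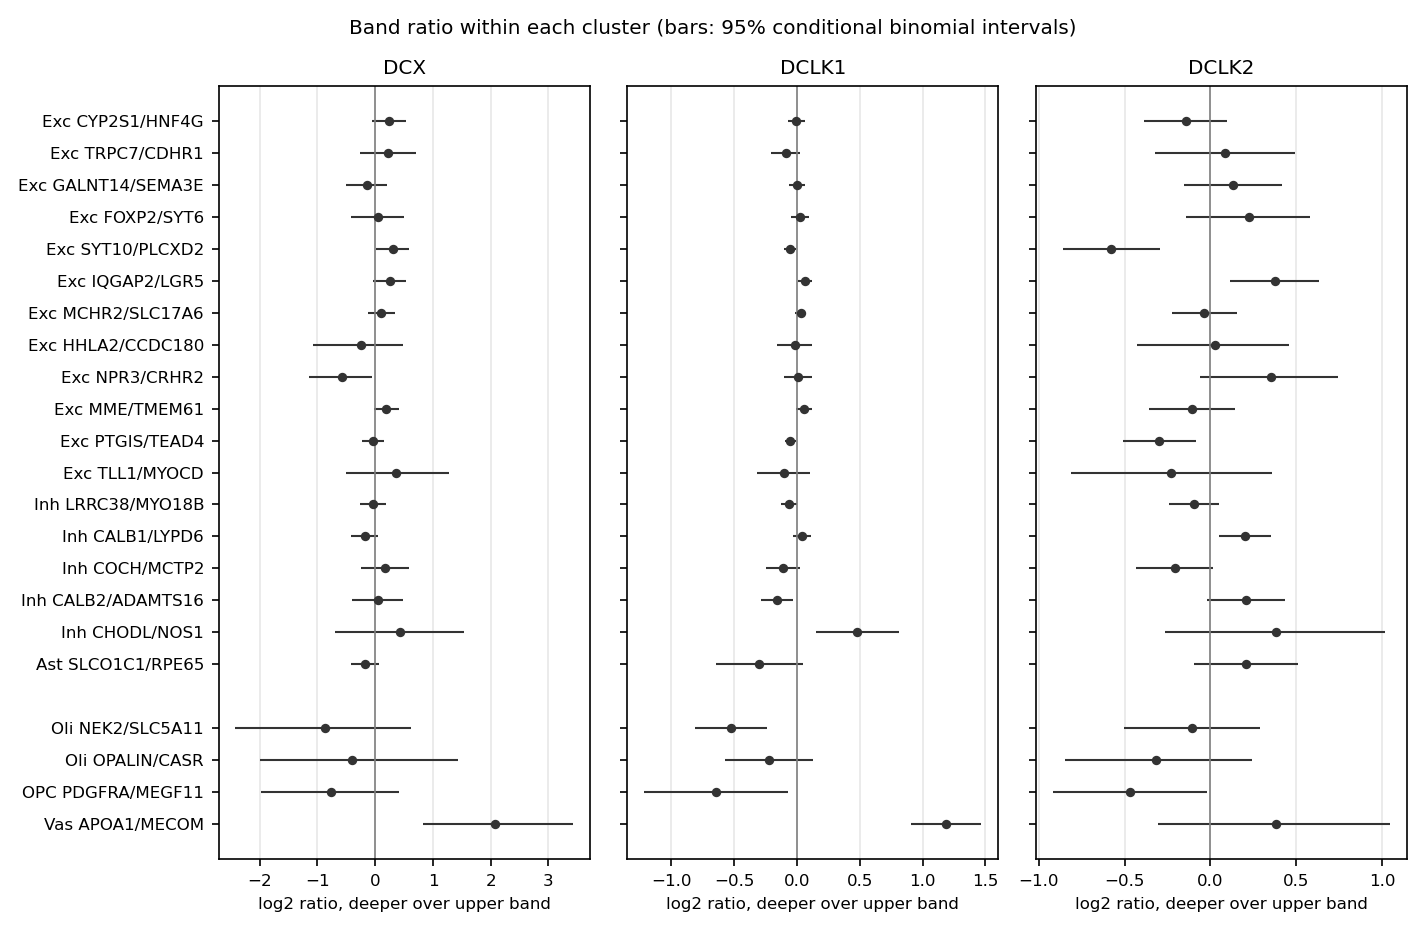
Log2 ratio of deeper over upper band (horizontal axis, with a scale of its own in each panel) of DCX, DCLK1 and DCLK2 in each named cluster with at least 10 nuclei in both bands, labelled by class and 2 leading genes. Points are ratios of CPM, bars 95% conditional binomial intervals and the vertical line marks 0. DCX and DCLK2 intervals lay clear of 0 in 2 and 3 of the 12 excitatory clusters, on both sides of it.

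Genes known to act with DCX were described by lists. Of 6 other doublecortin-domain genes in the files, 3 had at least 50 UMIs over both bands in excitatory nuclei, and none passed 1.5-fold between bands, where 4.14% of genes were higher and 7.6% lower. The same held for the 14 kinases and phosphatase subunits, among them CDK5 and the JNK gene MAPK10, which act on DCX, and for the 7 partners such as the kinesin genes KIF1A and KIF1B. Their median log2 ratios were -0.05, -0.02 and 0.02, against -0.03 for all genes. In inhibitory nuclei none of 2, 13 and 7 genes passed, where 3.48% of genes were higher and 3.62% lower, and in astrocyte-like nuclei none of 1, 10 and 4, where 4.86% were higher and 3.94% lower.

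Of the 14 other genes of lissencephaly measured in excitatory nuclei, 1 was 1.5-fold higher in the deeper band and 2 were lower. The higher gene was TUBB2B, a tubulin, with 36.0 CPM in the upper and 57.5 CPM in the deeper band and a log2 ratio of 0.68 (0.58 to 0.78). Among the lower genes was RELN, which encodes the secreted protein reelin, at 24.2 and 14.6 CPM. TUBB2B was also higher in inhibitory (56.2 and 91.6 CPM) and astrocyte-like nuclei (133 and 211 CPM). In inhibitory nuclei 2 of 14 such genes were higher, TUBB2B and TUBA1A (5.48 and 14.2 CPM), and 1 was lower, RELN (1015 and 517 CPM). The share of nuclei in each inhibitory cluster also differed between bands, and its part in the RELN value was not tested.

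Of the 15 other microtubule-associated genes, STMN1 was the only one past 1.5-fold in excitatory nuclei, going from 80.9 CPM in the upper to 132 CPM in the deeper band by a log2 ratio of 0.71 (0.64 to 0.78). It was also the only one in astrocyte-like nuclei, at 78.0 and 127 CPM, and none passed in inhibitory nuclei, where STMN1 had 85.9 and 112 CPM. The medians of the lissencephaly and microtubule lists in excitatory nuclei were 0.06 and 0.01. In oligodendrocyte-like nuclei, where 3.78% of genes were higher and 3.06% lower, PPP1R9B (6.76 and 12.9 CPM) and CDK5 (7.25 and 11.4 CPM, with an interval that holds 0) were higher, and MAP2 (125 and 78.9 CPM) and STMN2 (31.4 and 18.8 CPM) lower in the deeper band. In precursors, where 8.84% of genes passed in either direction, no gene of the 5 lists did. Only 1, 6, 4, 9 and 11 genes of the lists had at least 50 UMIs there.

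The lists were also set out between astrocyte-like and excitatory nuclei, where 28.7% and 29.7% of all genes were 1.5-fold higher and 31.9% and 31.7% lower in astrocyte-like nuclei. All 3 doublecortin-domain genes measured there, DCDC1, DCDC2 and DCLK3, were lower in both bands, as was DCLK1. DCLK2, like DCX, was higher in astrocyte-like nuclei, with log2 ratios of 0.50 (0.26 to 0.74) in the upper and 1.32 (1.16 to 1.48) in the deeper band, and the first of these did not reach 1.5-fold. DCDC1 had 115 CPM in excitatory and 29.0 in astrocyte-like nuclei of the upper band and 108 and 37.7 in the deeper band. Of the 7 partners, 1 was higher and 3 were lower in each band: NFASC, a cell adhesion protein that binds DCX, was lower (302 to 42.3 CPM in the upper band), KIF1B was higher (275 to 705 CPM) and KIF1A was not past 1.5-fold. Of the kinases and phosphatase subunits 2 were higher and 5 lower of 13 in the upper band, and 2 higher and 7 lower of 14 in the deeper band. Among those higher was PPP1R9B, which encodes spinophilin, a protein that brings a phosphatase to DCX (4.27 to 43.1 CPM in the upper band). Of the 15 microtubule genes 5 were lower in both bands, among them MAP1B, CRMP1 and STMN2, a share near that of all genes. Of the lissencephaly genes TUBB2B, at 36.0 and 133 CPM in the upper band, was higher.

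Genes whose levels followed each member most closely were sought over 45 points, the named clusters of each band with at least 10 nuclei, by the Pearson correlation of log2(CPM + 1) among 8672 genes. The points share libraries and cell types, so the correlations are a description. Among the 5 nearest to DCX were PFKM (0.88), ASTN1 (0.87), SLC1A4 (0.87) and SPIRE1 (0.87). ASTN1 encodes astrotactin, a neuronal protein of glia-guided migration, SLC1A4 a neutral amino acid transporter and SPIRE1 an actin nucleator. Like DCX, SLC1A4 was higher in astrocyte-like (186 CPM) than in inhibitory (119 CPM) and excitatory nuclei (87.0 CPM) and low in oligodendrocyte-like nuclei (23.2 CPM). PFKM and SPIRE1 followed the same order. ASTN1 did not, with 623 CPM in astrocyte-like, 913 CPM in inhibitory and 760 CPM in excitatory nuclei.

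For DCLK1 the nearest were PPFIA4 (0.96), DLGAP2, STMN2, BICDL1 and SYT1 (0.95 each). SYT1 is the calcium sensor of synaptic vesicles and STMN2 a tubulin-binding protein of axons, and STMN2 had 226 CPM in excitatory and 20.7 CPM in astrocyte-like nuclei. The profiles nearest to DCLK2 were less close, namely AGO4 (0.75), SCML2 (0.74), FCHSD2, ECI2 and GRIP1 (0.73 each). GRIP1, a scaffold for glutamate receptors, had 626 CPM in inhibitory and 47.7 CPM in excitatory nuclei. Between the members themselves the correlation was 0.54 for DCX with DCLK1, 0.53 for DCX with DCLK2 and 0.11 for DCLK1 with DCLK2.

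Thinned nuclei were also split by whether they carried a DCX UMI, to see whether a paralog was found with it. In inhibitory nuclei of the upper band DCLK2 was found in 47.3% of those with DCX and 35.2% of those without, but in the deeper band in 34.9% and 39.3%. Among astrocyte-like nuclei, 7.53% of those with and 16.0% of those without DCX carried DCLK2 in the upper band, and 18.7% and 21.0% did in the deeper band. DCLK1 was found in 91.4% of excitatory nuclei with DCX and 88.8% of those without in the upper band, and in 89.2% and 89.5% in the deeper band. The inhibitory difference was opposite in sign between the bands, and the astrocyte-like intervals with and without DCX overlapped in each.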

How the data were processed

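For each library the authors deposited UMI counts by gene and barcode, with no normalization, as their headers and whole numbers show. The submitters' processing notes name Cell Ranger 6.2.1 and 2.1.1 with no role for each, and the matrix header gives software version 3.1.0. Genome build, annotation and treatment of intronic reads are not given in the sources used here. The members and lists were chosen with earlier results of these data known.

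Barcodes with at least 500 genes were kept (7091 of 7151 in the upper band, 9608 of 9694 in the deeper band). Scrublet then removed 830 (11.7%) and 1458 (15.2%) as doublets. Free RNA was not corrected. Both libraries were clustered together without the 3 members (2000 variable genes, 30 principal components, 15 neighbours, Leiden resolution 1; scanpy 1.11.5). A marker counted as raised at 1/3 of its highest cluster level and in at least 10% of nuclei, a rule set in earlier work after clusters had been seen. A cluster needed 3 raised markers. It stayed unnamed where another class had at least 5 markers raised 2-fold or more markers among the top 10 genes. Low UMI counts left a cluster unnamed only where none of its own markers was among these 10 genes. UMIs were summed per library and cluster. Nuclei are not replicates, so no test was run. Ratios needed 50 UMIs over both groups to count toward 1.5-fold. Ratio and interval code was tested on simulated data. Named genes are the members, the list genes and the 5 nearest profiles of each member. A few genes under this rule are not reported here.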

Additional observations from a re-analysis of the deposited data

Results flagged for a closer look

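In several pairs of classes or clusters the deeper over upper log2 ratio of a gene had intervals clear of 0 on opposite sides. With 1 library per band these differences were not tested. For DCX, the excitatory clusters led by SYT10 and PLCXD2 (0.30) and by NPR3 and CRHR2 (-0.58) differed by 0.88. For DCLK1, vascular and leptomeningeal-like nuclei (1.19) and oligodendrocyte precursors (-0.64) differed by 1.83. The inhibitory clusters led by CHODL and NOS1 (0.48) and by CALB2 and ADAMTS16 (-0.16) differed by 0.64 for DCLK1, with 22 and 12 nuclei in the CHODL cluster. The excitatory clusters led by IQGAP2 and LGR5 (0.06) and by SYT10 (-0.06) differed by 0.12. For DCLK2, the same excitatory clusters (0.38 and -0.58) differed by 0.96, and astrocyte-like nuclei (0.55) and oligodendrocyte precursors (-0.47) differed by 1.02.

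A cluster left out of every class, led by SLC14A1 and NWD1, had 107 CPM of DCX in the upper band (145 nuclei) and 114 CPM in the deeper band (44 nuclei). It raised markers of both oligodendrocytes (MBP at 1494 CPM) and astrocytes (SLC1A2 at 4996 CPM), and its level lay between those of the astrocyte-like and the oligodendrocyte-like classes.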

How the results depend on the processing

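Set against the reported ratios, 151 values under alternatives stayed within the counting interval and 22 left it. A further 1 changed the sign of a ratio whose interval excluded 0. Sign changes of ratios whose interval held 0 are within the other counts. The DCLK2 band ratio in astrocyte-like nuclei, 0.55, changed sign to -0.21 with the same cluster weights in both bands, an alternative chosen after seeing the data, and no other ratio whose interval excluded 0 did so under the alternatives run. The same weights gave -0.040 for the DCLK2 band ratio in excitatory nuclei. The cause of the shifts was not tested. Without the CD44 astrocyte cluster, an alternative chosen after seeing the data, the astrocyte-like band ratio was -0.30 for DCLK1 and 0.21 for DCLK2, and the astrocyte over excitatory ratio of the deeper band was -4.23 and 0.91. With classes from marker counts per nucleus, the astrocyte over excitatory ratio of DCX in the upper band was 1.27, that of DCLK1 was -2.68 and -3.02, and the astrocyte-like band ratio of DCLK1 was -0.34. With every nucleus thinned to 1500 UMIs, the DCX band ratio was 0.35 (excitatory) and 0.077 (inhibitory), the DCX astrocyte over excitatory ratio of the deeper band was 0.97, and the inhibitory DCLK1 band ratio was -0.091. Averaging the CPM of single nuclei gave DCLK1 band ratios of 0.022 (excitatory) and -0.12 (inhibitory) and DCLK2 band ratios of 0.12 (inhibitory) and 0.85 (astrocyte-like). Under the same setting the astrocyte over excitatory ratio of the deeper band was -3.50 for DCLK1 and 1.55 for DCLK2. The DCLK1 band ratio in excitatory nuclei was 0.025 with median-of-ratios scaling and 0.019 with 2 times as many doublets removed, and with no doublet removal the DCLK2 band ratio in inhibitory nuclei was -0.090. That setting named no astrocyte-like cluster, so it gave no astrocyte value. At 2-fold in place of 1.5-fold, 1 lissencephaly gene passed in excitatory and 1 in inhibitory nuclei, where 3 each had passed, but 0 in astrocyte-like nuclei, and 0 microtubule genes passed. With at least 2000 UMIs per gene, 5, 5 and 4 of the 5 nearest profiles of DCX, DCLK1 and DCLK2 remained, and with points of any number of nuclei 1, 2 and 2 did. No paired analysis was possible because each band had a single library, and for the same reason none could be left out. Depth limits DCX in oligodendrocyte precursors and vascular nuclei, with 9 to 17 UMIs in each band.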
